A study of Mus musculus with 18 samples.

Results

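HM is a P19 line that carries the RNase IIIb hotspot change of the Dicer1 gene, and its messenger RNA was compared here with that of unedited P19 cells (WT) over all expressed genes. The table of the series lists 55450 genes in 18 samples, and the genes compared were the 14043 that averaged 1 TPM or more in the 6 HM and 6 WT samples together. TPM gives each gene's share of a library's transcripts per unit of transcript length. P19 is a mouse embryonic carcinoma line, the stem cell of a teratocarcinoma, and was grown undifferentiated in serum-containing medium. WT cells were Dicer (+/+). HetKO cells, Dicer (+/-), were 1 clone in which a pair of guides had truncated a single Dicer1 allele. HM cells, Dicer (HM/-), were made from that clone by knocking E1797G into the remaining full-length allele, so HM carried the truncation as well as the hotspot. Each genotype was 1 line, and the mutation and the history of the clone cannot be told apart. No label says that the 6 samples of a line were separate cultures, and the p-values then measure only the spread between these samples.

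Dicer cuts hairpin precursors into miRNAs, and its RNase IIIb domain makes the cut that releases the strand from the 5′ arm. A miRNA guides an Argonaute protein to partly matching messenger RNAs, which are then translated less and degraded faster. Hotspot changes of this domain, paired with loss of the other allele, mark the tumours of DICER1 syndrome. The genes below were read by what they do in the cell, in 66 lists of pathways, organelles, gene families and lineage markers.

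Dicer1 itself (chr12:104687742-104751952, minus strand, mm10) was lower in HM. Its lowest, median and highest values over 6 samples were 35.4, 40.2 and 44.2 TPM in HM, 49.2, 52.8 and 54.8 TPM in WT and 42.9, 47.4 and 53.8 TPM in HetKO. HM and WT did not overlap, and the difference of HM minus WT on the log2(TPM + 1) scale was -0.37 ± 0.06, adjusted p = 0.000251. Every such difference below is on this scale, which understates the change of genes with few TPM, and those printed with an SE carry limma's p-value adjusted over the 14043 genes. Genes said to rise or fall passed that test. Triplets of TPM are the lowest, the median and the highest of 6 samples throughout. The stem cell identity of the label was present in both lines: Pou5f1, which encodes the pluripotency factor Oct4, was 1999, 2028 and 2145 TPM in HM and 2023, 2093 and 2136 TPM in WT. The lines overlapped in Pou5f1 and the difference of -0.03 ± 0.03, adjusted p = 0.397 did not pass the test, but turned to 0.14 and passed after each sample was centred on its median gene (adjusted p = 0.0153).

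The Y-linked genes Ddx3y, Eif2s3y, Kdm5d and Uty were listed at 0 TPM in the median of the HetKO samples, although HM is described as made from HetKO cells and expressed all 4. Ddx3y, an RNA helicase, was 41.9, 52.5 and 57.1 TPM in HM and 20.8, 27.4 and 29.8 TPM in WT, a rise of 0.91 ± 0.11, adjusted p = 3.14e-05 with no overlap. Eif2s3y, a subunit of initiation factor eIF2, rose by 0.27 ± 0.05, adjusted p = 0.000886, while Kdm5d and Uty did not pass. HetKO also had almost no Igf2r, Mgst1 or Lama1 messenger RNA. For this reason HetKO levels are given only as levels, and how the lines relate was not tested. Within HM the samples came in alike pairs, 1 with 4, 2 with 3 and 5 with 6: for 688 genes above 200 TPM the spread of the log2 ratio (robust SD) was 0.0606 to 0.108 within these pairs and 0.17 to 0.279 between them. In WT, samples 1 and 4 stood apart from samples 2, 3, 5 and 6, at 0.182 to 0.2.

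Of the 14043 genes, 7220 (51.4%) passed at an adjusted p under 0.05, of which 2722 (19.4% of the genes) rose in HM and 4498 (32.0%) fell. Changes of at least 2-fold were rarer and mostly falls, with 173 genes (1.23%) higher and 683 (4.86%) lower. In 4009 genes (28.5%) no HM sample overlapped a WT sample. List counts below are to be read beside these shares of all genes, which several lists come near. The median gene differed by -0.09, with quartiles of -0.42 and 0.20, so list medians are given below relative to the median of all genes. The balance of rises and falls depended on the scaling: with every sample centred on its median gene, which moved the median of all genes to 0.08, 4508 genes rose and 2879 fell, and with quantile normalization 3632 rose and 3479 fell. Direction followed expression level. With the genes split into 5 equal bins by mean TPM, 8.47% of the lowest bin rose and 27.3% fell, and of the highest bin 35.1% rose and 23.5% fell. Counts or medians after centring, quantile normalization or both are therefore given beside several lists of highly expressed genes, and not every such list has both.

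**Figure D1:**
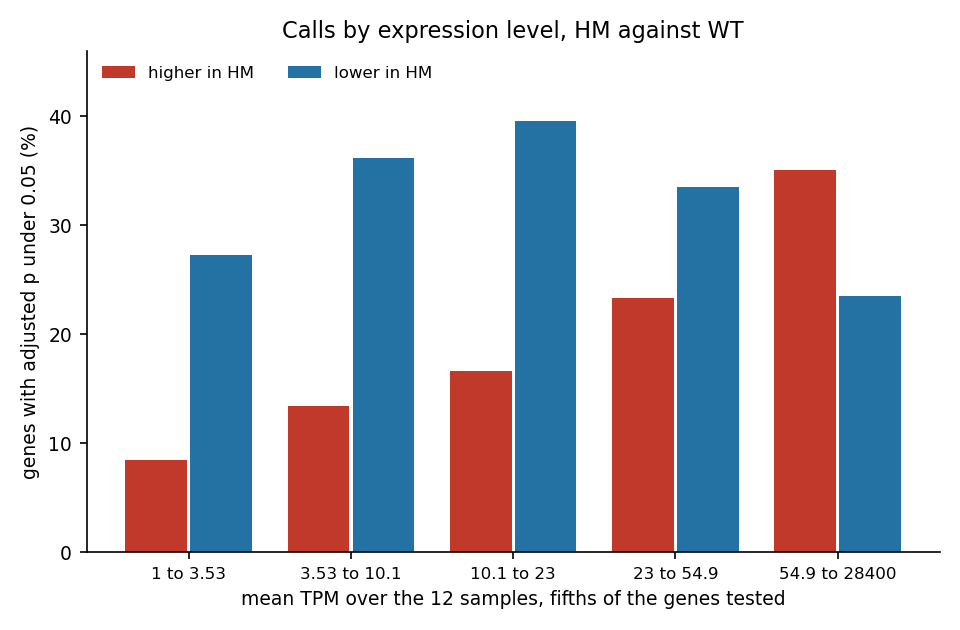
Percentage of genes higher (red) or lower (blue) in HM than in WT at an adjusted p under 0.05, for the 14043 genes in 5 equal bins of mean TPM over the 12 samples. The share of rises climbs from 8.47% in the lowest bin to 35.1% in the highest, while falls are most frequent in the middle bin, at 39.6%.

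The largest rise of any gene with an accepted name was that of Ccnd1 (chr7:144929931-144939925, minus strand, mm10), which encodes cyclin D1, the cyclin that starts passage through G1 with Cdk4 and Cdk6. Ccnd1 was 99.1, 137 and 228 TPM in HM, 9.65, 11.3 and 12.4 TPM in WT and 17.5, 21.3 and 52.7 TPM in HetKO. Every HM sample was above every sample of both other lines, and the difference from WT was 3.59 ± 0.21, adjusted p = 1.54e-07. Pknox1 (chr17:31564734-31607693, plus strand, mm10), a homeodomain partner of the Hox and Pbx factors, was second, at 109, 125 and 143 TPM in HM and 8.43, 12.1 and 13.4 TPM in WT, with a difference of 3.38 ± 0.11, adjusted p = 4.08e-10. The other 13 of the 15 largest rises fell into a few kinds. Spry2, Spry4, Dusp6, Egr1 and Fgf5 belong to FGF and ERK signalling and are described below. En1, Tlx3, Lef1 and Skida1 encode nuclear regulators, with differences of 2.17, 1.85, 1.89 and 1.92. En1, a midbrain and limb homeobox gene, was 2.89, 9.22 and 18.1 TPM in HM and 0.63, 1.01 and 1.98 TPM in WT, with HM samples 2 and 3 near 18 TPM. Fjx1, a Golgi protein related to the four-jointed kinase, Plekhm1, an adaptor of late endosomes, and Zfp428 differed by 2.17, 2.06 and 1.85.

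Igf2r, the imprinted receptor that clears Igf2 and carries enzymes to the lysosome, was the remaining member of the 15. It was 14.3, 16.5 and 17.3 TPM in HM and 0, 0.20 and 0.23 TPM in HetKO. In WT it was 10.8 and 10.1 TPM in samples 1 and 4 and 1.71 to 2.06 TPM in the other 4. HM lay above all WT samples, and the difference was 1.90 ± 0.37, adjusted p = 0.00106.

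The largest falls were near losses of single transcripts. The maternally expressed noncoding RNAs Meg3, Rian and Mirg of the imprinted Dlk1-Dio3 cluster on chromosome 12 went from a median of 269.9, 389 and 14.4 TPM in WT to 0, 1.13 and 0.12 TPM in HM. Their differences were -8.10 ± 0.06, adjusted p = 6.07e-18, -7.45 ± 0.19, adjusted p = 3.38e-11 and -3.80 ± 0.13, adjusted p = 8.01e-10. In HetKO the medians were 201, 293 and 12.4 TPM. Of the 5 tested genes of the cluster, Dlk1 also fell (-1.28 ± 0.30, adjusted p = 0.00316) from a low level, 0.57, 1.28 and 5.45 TPM in WT, and none rose. The list median stood 3.70 below that of all genes. The methods of the study describe the cluster as silenced in the HM clone.

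Protein-coding genes were lost to a similar degree elsewhere. Tsnax (chr8:125012997-125034192, plus strand, mm10) encodes translin-associated factor X, the catalytic part of the C3PO RNA nuclease, and was 0.070, 0.12 and 0.42 TPM in HM, 48.3, 49.1 and 50.7 TPM in WT and 48.8, 52.9 and 57.3 TPM in HetKO. Nmral1, a redox sensor, was 0.48, 0.90 and 1.74 TPM in HM against 38.1, 54.3 and 57.4 TPM in WT, and Galnt11, a glycosyltransferase of mucin-type sugars, 0, 0.030 and 0.040 TPM against 12.1, 16.6 and 19.2 TPM. In these 3 genes each HM sample was far under each WT and HetKO sample, with differences of -5.44 ± 0.08, adjusted p = 4.54e-14, -4.71 ± 0.16, adjusted p = 7.95e-10 and -4.04 ± 0.11, adjusted p = 6.61e-11. Serpinh1 (chr7:99345376-99353239, minus strand, mm10), the collagen chaperone Hsp47, was 1.85, 3.31 and 8.26 TPM in HM and 55.5, 100.4 and 109 TPM in WT, and its difference was -4.16 ± 0.31, adjusted p = 1.54e-06. Mogat2 (chr7:99219084-99238619, minus strand, mm10), an enzyme of triglyceride synthesis encoded next to it on chromosome 7, fell by 3.04 ± 0.26, adjusted p = 5.07e-06.

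Other members of the 15 largest falls included the lysosomal enzyme gene Hexa (-2.97 ± 0.30, adjusted p = 1.43e-05), whose HetKO median of 2.69 TPM was as low as the HM median of 2.17 TPM, and Mettl5, which encodes the methyltransferase of the small ribosomal RNA. Mettl5 was 19.9 and 22.2 TPM in HM samples 2 and 3 and 0.38 to 1.82 TPM in the other 4, against 32.8, 39.5 and 46.5 TPM in WT. Txnip, an inhibitor of glucose uptake and thioredoxin, was 18.6, 22.1 and 42.1 TPM in HM and 106, 212 and 259.5 TPM in WT, a difference of -2.75 ± 0.27, adjusted p = 1.16e-05. Apobec3, a restriction factor of retroviruses, Fbxw17, an F-box gene, and Mpzl2, an adhesion gene, fell (-2.70, -3.64 and -2.63). Ndrg1 is described with the hypoxia response.

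**Figure D2:**
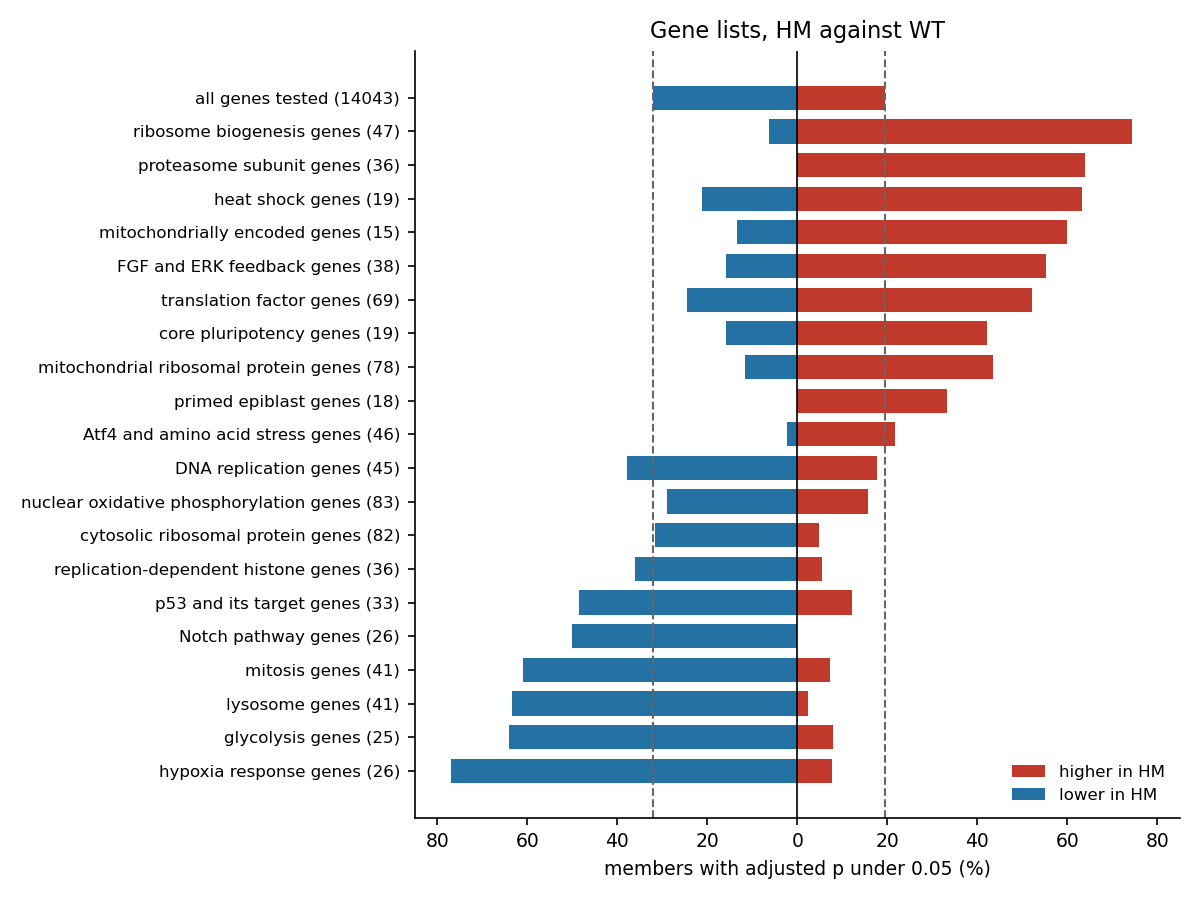
Percentage of tested members of 20 gene lists, and of all genes, that were higher (red, right) or lower (blue, left) in HM than in WT at an adjusted p under 0.05. Numbers of tested genes are in parentheses and dashed lines mark all genes, at 19.4% higher and 32.0% lower. Ribosome biogenesis genes are furthest to the right with 35 of 47 higher, and hypoxia response genes furthest to the left with 20 of 26 lower.

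Genes of FGF signalling and of the negative feedback that ERK switches on rose together. FGF ligands bind receptor kinases that activate Ras, Raf, Mek and Erk, and active Erk induces Sprouty proteins and Dusp phosphatases that dampen it. Of 38 tested members of this list 21 rose, 9 of them by at least 2-fold, and 6 fell. The list median stood 0.46 above that of all genes, and quantile normalization gave 22 rises and 5 falls. Spry2 was 21.9, 30.5 and 45.4 TPM in HM, 5.07, 5.92 and 11.7 TPM in WT and 3.9, 4.28 and 22 TPM in HetKO, a difference of 2.0 ± 0.24, adjusted p = 3.34e-05. Spry4 was 14.3, 19.2 and 36 TPM in HM and 3.7, 4.28 and 7.04 TPM in WT (1.99 ± 0.23, adjusted p = 3.31e-05). Dusp6, the cytoplasmic phosphatase of Erk, was 52.6, 61.9 and 100.03 TPM in HM, 13.1, 15.7 and 30.1 TPM in WT and 6.91, 10.3 and 28.9 TPM in HetKO (1.84 ± 0.22, adjusted p = 3.55e-05). In these 3 genes HM samples 5 and 6 were the highest and all HM samples lay above WT.

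Among the ligands, Fgf5, a marker of the postimplantation epiblast, was 19.1, 22.6 and 59.6 TPM in HM and 3.97, 5.99 and 8.97 TPM in WT (2.10 ± 0.30, adjusted p = 0.000122). Fgf4, the ligand that undifferentiated cells make under Oct4 and Sox2, was 17.1, 27.2 and 38.5 TPM in HM and 9.55, 11 and 13.4 TPM in WT (1.14 ± 0.20, adjusted p = 0.00046). Fgf8 went the other way, at 1.66, 3.19 and 4.91 TPM in HM and 3.7, 4.87 and 10.5 TPM in WT, with overlapping samples (-0.79 ± 0.27, adjusted p = 0.0247), and was 2.11, 23.9 and 60.4 TPM in HetKO. The call for Fgf8 was lost without HM replicate 1 or 2 or WT replicate 2 or 5, at adjusted p up to 0.0585, and after centring or quantile normalization. The falls in the list included signalling parts upstream of the feedback genes. The receptor gene Fgfr2 fell by 1.28 ± 0.27, adjusted p = 0.00151, the docking protein gene Frs2 (-0.40 ± 0.06, adjusted p = 0.000149) and Mapk3, which encodes Erk1, (-0.77 ± 0.09, adjusted p = 2.79e-05).

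Immediate early genes, the first to be transcribed after a growth signal, were mixed: 6 of 21 rose and 4 fell. Egr1, a zinc finger factor induced through Erk, was 12.4, 21.6 and 26.7 TPM in HM, 3.0, 3.68 and 5.05 TPM in WT and 1.34, 3.8 and 11.7 TPM in HetKO (2.15 ± 0.17, adjusted p = 2.96e-06). Ier2 was 41.9, 51.4 and 59.9 TPM in HM and 23.4, 26.7 and 27.5 TPM in WT (0.97 ± 0.09, adjusted p = 5.49e-06). Egr2 and Junb rose by 0.66 and 0.85, and Fos by 0.92 with overlapping samples. Klf10, a TGF-beta induced factor, fell by 1.23 ± 0.18, adjusted p = 0.000167, as did Maff and the phosphatase gene Dusp1, with differences of -0.79 and -0.25. That of Dusp1 did not hold after centring (-0.08, adjusted p = 0.383) or quantile normalization (-0.09).

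**Figure D3:**
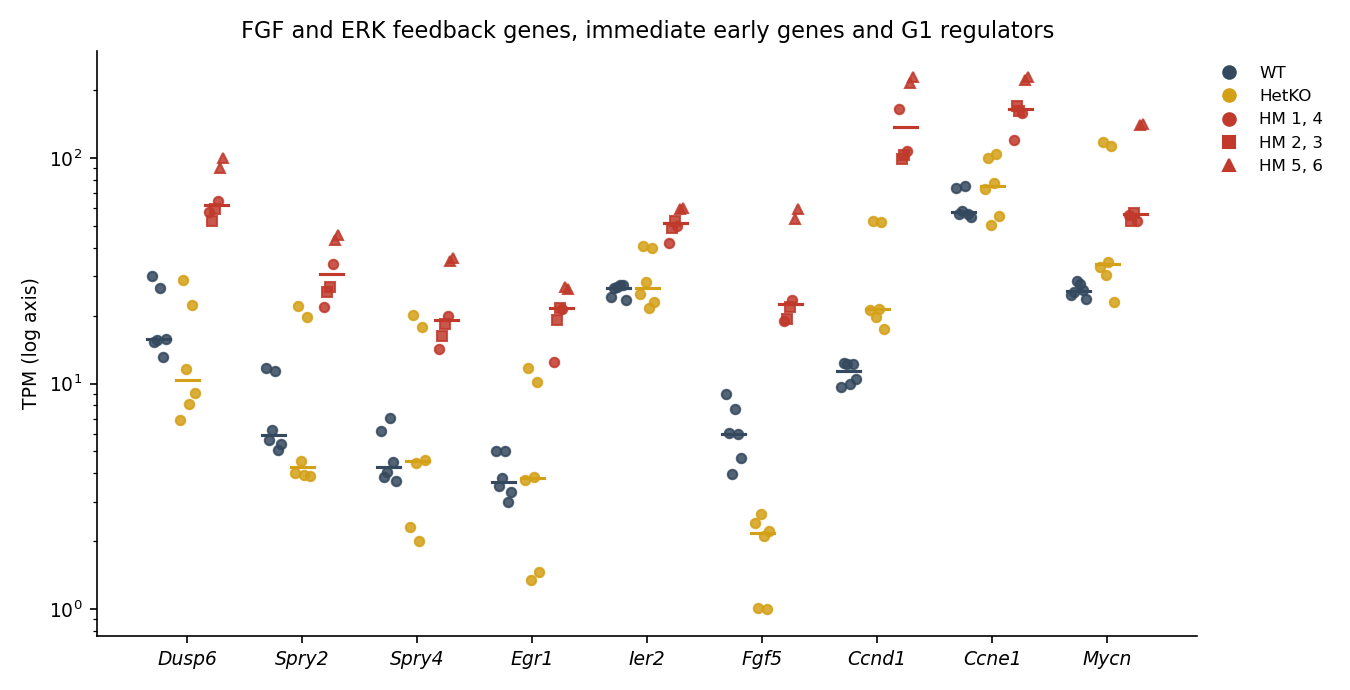
TPM on a log axis in each of the 6 WT, 6 HetKO and 6 HM samples for genes of FGF and ERK feedback (Dusp6, Spry2, Spry4), immediate early genes (Egr1, Ier2), Fgf5 and regulators of G1 (Ccnd1, Ccne1, Mycn), with the median of each line as a bar and HM pairs as circles, squares and triangles. HM lies above WT in each of the 9 genes, with HM samples 5 and 6 at the top.

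Of 32 tested regulators of the G1 to S step 12 rose and 10 fell, a list median of 0.06 above all genes that turned to -0.04 with no filter on low values. Ccne1, cyclin E1, was 120.2, 166 and 228 TPM in HM and 54.6, 57.6 and 75.3 TPM in WT (1.47 ± 0.15, adjusted p = 1.24e-05). Ccne2 rose by 1.35 ± 0.13, adjusted p = 9.15e-06. Mycn, the Myc factor of stem and neural cells, was 52.5, 56.7 and 141 TPM in HM and 23.6, 25.6 and 28.7 TPM in WT (1.5 ± 0.26, adjusted p = 0.00043), with HM samples 5 and 6 and HetKO samples 2 and 5 the highest. The inhibitor genes Cdkn1b and Cdkn1c fell (-0.59 ± 0.16, adjusted p = 0.00791 and -1.14 ± 0.20, adjusted p = 0.000514), the pocket protein gene Rbl2 (-0.77 ± 0.16, adjusted p = 0.00191) and E2f1 (-0.86 ± 0.13, adjusted p = 0.000187). Cdkn1a, p21, was 1.3, 1.99 and 3.02 TPM in HM and 1.53, 1.91 and 2.35 TPM in WT and did not pass (0.05 ± 0.16, adjusted p = 0.816).

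Among 45 DNA replication genes 8 rose and 17 fell, and with quantile normalization 7 rose and 19 fell. With samples centred on their median gene 16 rose and 9 fell, so that the balance of the list turned under centring. The polymerase genes Pold1, Pold2 and Pole fell (-0.51, -1.04 and -0.66), as did Cdc45 (-0.64). Orc2 and Dna2 rose by 0.63 and 0.60. Pcna, the sliding clamp, rose by 0.23 ± 0.06, adjusted p = 0.00742 with overlapping samples, which quantile normalization reduced to 0.06 (adjusted p = 0.465), and Mcm2 did not pass (0.06 ± 0.05, adjusted p = 0.295). Pold2 was 89.7, 110.3 and 153 TPM in HM and 189, 231 and 260.3 TPM in WT with no overlap.

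Genes of mitosis fell more often than the background: 25 of 41 fell and 3 rose. The list median was 0.13 below that of all genes, and centring left 17 falls and 8 rises. Spc25, part of the Ndc80 complex that ties kinetochores to microtubules, was 44.8, 53.8 and 58.5 TPM in HM and 92.2, 124 and 134 TPM in WT (-1.11 ± 0.10, adjusted p = 7.32e-06). Nusap1 and Prc1, which bundle spindle microtubules, fell (-0.73 and -0.68), and the phosphatase gene Cdc25b (-0.88). Birc5, survivin, rose by 0.27 ± 0.05, adjusted p = 0.000417 and Mad2l1 by 0.28 ± 0.07, adjusted p = 0.00538. Plk1 did not pass (0.01 ± 0.06, adjusted p = 0.911), and the fall of Aurka (-0.17 ± 0.06, adjusted p = 0.0224) became 0.01 after centring.

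The machinery that makes ribosomes was the list with the largest share of rises. Ribosome biogenesis factors process and assemble ribosomal RNA in the nucleolus, and 35 of 47 rose while 3 fell. Their median was 0.57 above that of all genes, 0.39 with quantile normalization, which gave 36 rises and 4 falls, and centring gave 40 and 1. Utp4, a subunit of the small-subunit processome, was 99.5, 127 and 177 TPM in HM, 45.2, 55.5 and 80.5 TPM in WT and 54.6, 63.3 and 118 TPM in HetKO (1.11 ± 0.17, adjusted p = 0.000212). Nop2, a methyltransferase of ribosomal RNA, was 163, 197 and 270.3 TPM in HM and 85.2, 90.7 and 121 TPM in WT (1.08 ± 0.14, adjusted p = 7.38e-05). Nop58, a core protein of box C/D snoRNPs, was 621, 713 and 828 TPM in HM and 337, 388 and 427 TPM in WT (0.89 ± 0.08, adjusted p = 6.43e-06). None of these 3 overlapped. Imp4 and Ncl, nucleolin, rose by 0.97 and 0.43, Npm1 did not pass (0.02 ± 0.04, adjusted p = 0.674), and Polr1c, shared by RNA polymerases I and III, fell by 0.29 ± 0.05, adjusted p = 0.000605.

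The list score, the sample's median over list members minus its median over all genes with the WT mean set to 0, ran from 0.36 to 0.88 in HM and from -0.10 to 0.19 in WT. It was highest in HM samples 5 and 6. HetKO samples 2 and 5, at 0.58 and 0.52, fell inside the HM range, and the other 4 HetKO samples were at 0.01 to 0.06. HetKO samples 2 and 5 also scored inside the HM range for lists described below. Their scores were 0.37 and 0.42 for mitochondrial ribosomal protein genes and 0.30 and 0.34 for translation factor genes. For proteasome subunit genes they were 0.33 and 0.31, and for heat shock genes 0.38 and 0.43.

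Ribosomal proteins of the cytosol did not follow. Of 82 tested, 4 rose and 26 fell, and with quantile normalization 4 rose and 27 fell. Centring reversed this to 25 rises and 6 falls, with a list median 0.01 above that of all genes. The 4 rises found before scaling became 2 without any one of HM replicates 2 and 4 and WT replicates 2, 3 and 5. Rpl3 fell by 0.46 ± 0.06, adjusted p = 8.46e-05, Rpl10a (-0.55 ± 0.05, adjusted p = 6.01e-06) and the paralogue Rpl22l1 (-1.36 ± 0.21, adjusted p = 0.00024). Rpl7l1 rose by 0.48 ± 0.08, adjusted p = 0.000404, and Rps3 did not pass (-0.12 ± 0.06, adjusted p = 0.136). Such genes share reads with many processed pseudogenes. Of 78 mitochondrial ribosomal protein genes 34 rose and 9 fell, with a median 0.29 above all genes (0.14 with quantile normalization), and centring gave 55 rises and 2 falls. Mrpl20 was 226, 287 and 317 TPM in HM and 118, 131 and 143 TPM in WT (1.09 ± 0.08, adjusted p = 1.67e-06), and Mrpl19 and Mrps18b rose by 0.82 and 0.80. Mrpl14 fell by 0.51.

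Translation factors rose in 36 of 69 and fell in 17, with a median 0.29 above all genes with 36 rises and 12 falls under quantile normalization and 47 and 5 after centring. Eif6, which keeps the large subunit free until it is mature, was 172, 208 and 214 TPM in HM and 101, 114 and 128 TPM in WT (0.83 ± 0.08, adjusted p = 7.26e-06). Eif4g3, a scaffold of cap binding, and Eif3j2 rose by 0.90 and 0.92. Eef2 and Eif4b, whose messenger RNAs are translated with the ribosomal proteins, fell (-0.55 ± 0.05, adjusted p = 4.74e-06 and -0.51 ± 0.04, adjusted p = 1.94e-06). Of the kinases that phosphorylate eIF2, Eif2ak1 rose (0.78 ± 0.09, adjusted p = 3.2e-05) and Eif2ak2, the double-stranded RNA sensor PKR, fell (-1.36 ± 0.20, adjusted p = 0.000146), from 8.32, 8.78 and 10.8 TPM in WT to 1.06, 3.4 and 4.22 TPM in HM.

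Genes of protein folding and breakdown also rose. Of 36 proteasome subunit genes 23 rose and none fell, a median 0.36 above that of all genes that shrank to 0.14, with 17 rises and 3 falls, under quantile normalization. Centring gave 34 rises and no fall. Psmc5, a base ATPase, was 315, 361 and 409 TPM in HM and 199, 215 and 289 TPM in WT (0.66 ± 0.10, adjusted p = 0.000241), and Psmc4 and Psmc1 rose by 0.58 and 0.52. Of 19 heat shock genes 12 rose and 4 fell, and the median was 0.42 above all genes (12 and 3 with quantile normalization, 13 and 2 after centring). Hsph1, a nucleotide exchange factor of Hsp70, was 96.9, 124 and 179 TPM in HM and 49, 53.7 and 65.4 TPM in WT (1.23 ± 0.14, adjusted p = 2.76e-05). Hspd1, the mitochondrial chaperonin Hsp60, was 727, 922 and 1129 TPM in HM and 417, 464 and 628 TPM in WT (0.90 ± 0.13, adjusted p = 0.000129). Dnaja1 and the Hsp90 activator Ahsa1 rose by 0.86 and 0.61, and Hspb8 and Hsf2 fell (-1.14 and -0.29), the second of which did not hold after centring (-0.12, adjusted p = 0.17). The inducible Hspa1a was 0 TPM in the HM median and 0.22 TPM in the WT median, under the filter.

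The chaperones of the endoplasmic reticulum had 9 rises and 7 falls among 32. Hspa5, the chaperone BiP, was 354, 375 and 441 TPM in HM, 172, 204 and 338 TPM in WT and 183, 344 and 403 TPM in HetKO (0.76 ± 0.16, adjusted p = 0.00149), and its partner Dnajb11 rose by 0.56. Besides Serpinh1, the collagen-modifying Plod2 fell by 1.46 ± 0.22, adjusted p = 0.000189. Both act on collagen chains, as does P3h1, with a difference of -0.27 that did not hold after centring (-0.09, adjusted p = 0.316) or quantile normalization (-0.13).

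**Figure D4:**
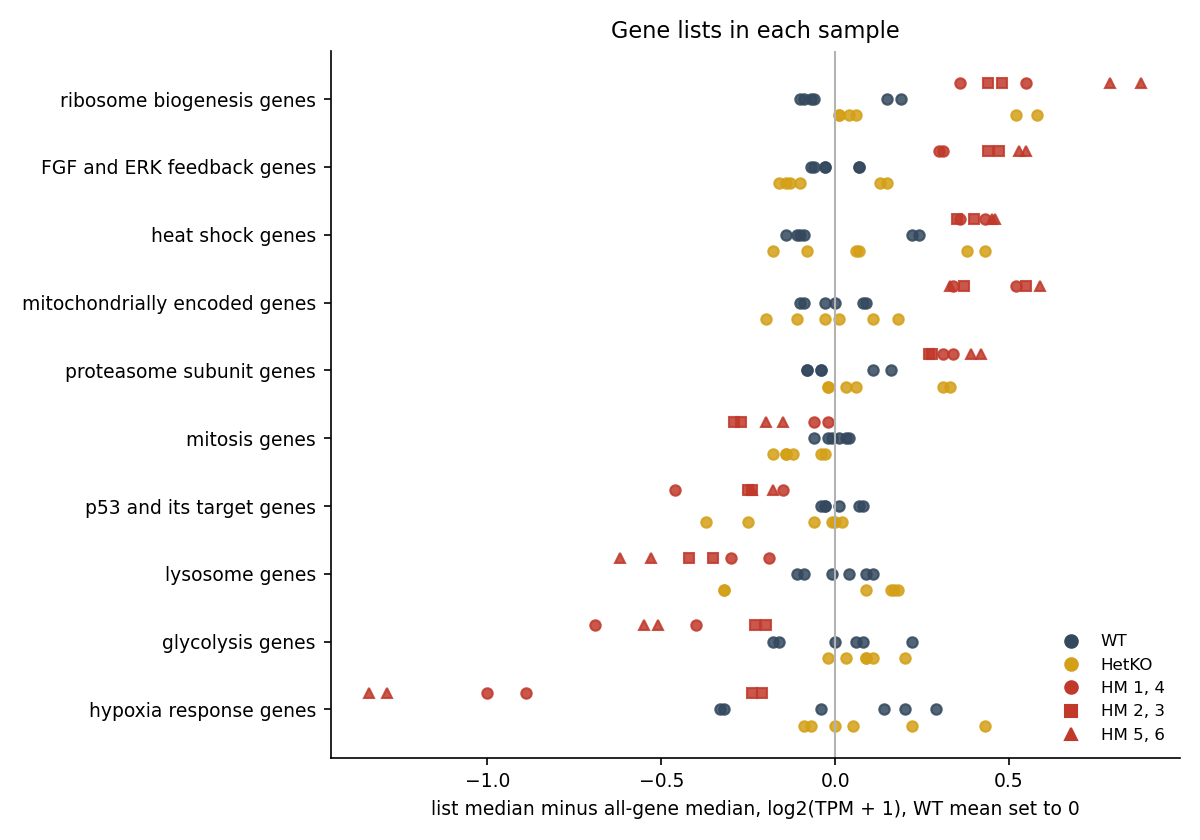
Score of 10 gene lists in each sample, the median log2(TPM + 1) of the list's members relative to WT minus that of all genes, with the mean of the 6 WT samples set to 0. HM pairs are circles, squares and triangles. In 8 of the 10 lists HM and WT do not overlap, and for hypoxia response genes HM samples 2 and 3 lie between WT samples 1 and 4 and the other WT samples.

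Genes of the response to low oxygen fell. Hif1a and Epas1 are the oxygen-sensitive factors, and their targets shift cells to glycolysis, spare oxygen in mitochondria and call for vessels. Of 26 tested members 20 fell, 9 of them by at least 2-fold, and 2 rose. The list median was 0.73 below that of all genes, and quantile normalization left 18 falls and 2 rises. Ndrg1, a stress-responsive cytoplasmic protein, was 2.62, 7.43 and 35.5 TPM in HM, 49.8, 85.8 and 108 TPM in WT and 30.1, 55.6 and 103 TPM in HetKO (-2.98 ± 0.52, adjusted p = 0.000471). Pdk1, the kinase that shuts pyruvate out of the mitochondrial cycle, was 19.5, 25.3 and 31.6 TPM in HM and 95.1, 119 and 134 TPM in WT (-2.15 ± 0.12, adjusted p = 1.48e-07). Ero1l, an oxidase of disulphide bonds, was 34.3, 49 and 123.05 TPM in HM and 155, 259 and 301 TPM in WT (-1.97 ± 0.33, adjusted p = 0.000337). Loxl2, a collagen crosslinker, fell by 1.47 ± 0.29, adjusted p = 0.00112.

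None of these 4 genes overlapped, but the samples differed within HM. Ndrg1 was 35.5 and 22.9 TPM in HM samples 2 and 3 and 2.62 to 9.60 TPM in the other 4. In WT, samples 1 and 4 had the least Ndrg1, at 49.8 and 52.4 TPM. The list score was -0.21 and -0.24 in HM samples 2 and 3, and -0.89 to -1.34 in the other 4, while WT samples 1 and 4 were at -0.33 and -0.32 and the other 4 WT samples at -0.04 to 0.29. Without HM samples 2 and 3 the list had 24 falls and 2 rises, and with alike samples merged into pair means 12 falls and 1 rise. HetKO scored between -0.09 and 0.43.

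The regulators did not fall with the targets. Hif1a was 59.1, 74.7 and 80.8 TPM in HM and 50.9, 54.6 and 61.5 TPM in WT, a rise of 0.35 ± 0.08, adjusted p = 0.00335 with overlapping samples. Epas1, Hif2-alpha, was 7.62, 8.93 and 9.46 TPM in HM and 1.26, 2.13 and 3.43 TPM in WT, a rise of 1.64 ± 0.17, adjusted p = 1.38e-05. Vegfa, the vessel growth factor, was 20.6, 24.3 and 43.6 TPM in HM and 23.8, 41.9 and 45.6 TPM in WT and did not pass (-0.37 ± 0.23, adjusted p = 0.197). It was lower by 0.66 and passed without HM samples 2 and 3 (adjusted p = 0.0156).

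**Figure D5:**
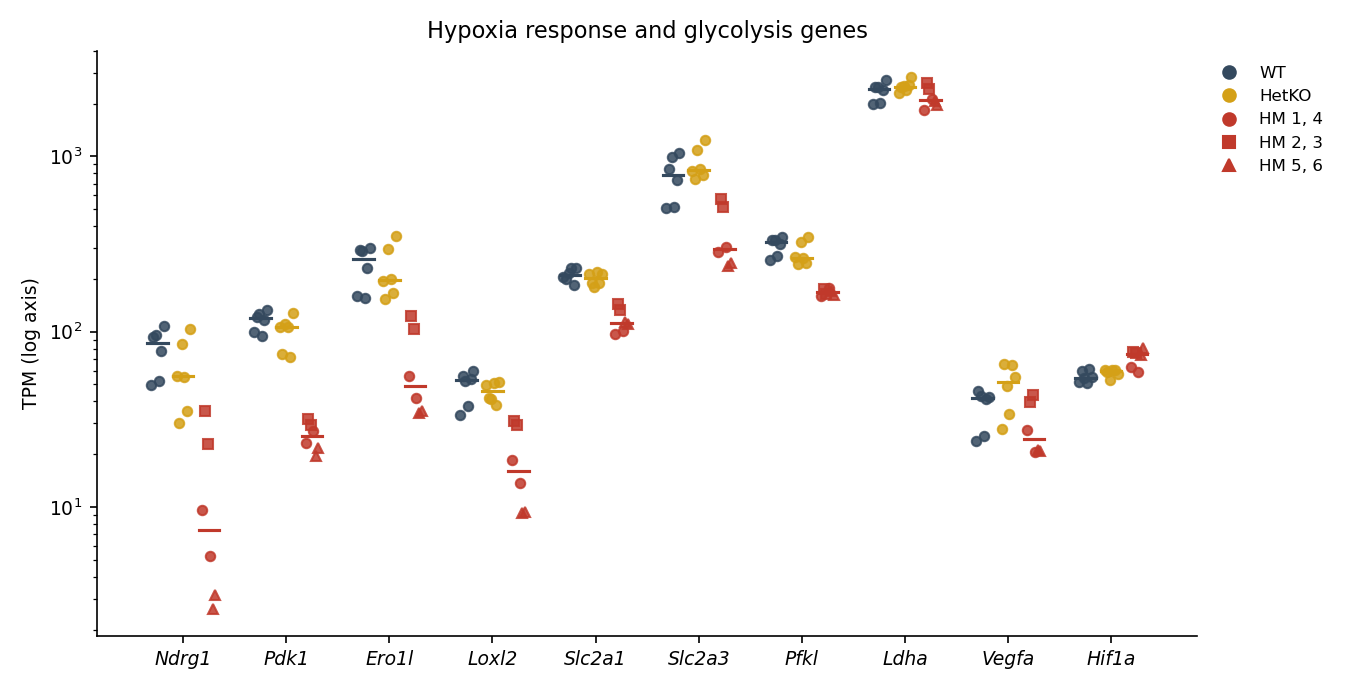
TPM on a log axis of 10 genes of the hypoxia response and of glycolysis in each WT, HetKO and HM sample, with medians as bars and HM pairs as circles, squares and triangles. HM lies below WT without overlap in Ndrg1, Pdk1, Ero1l, Loxl2, Slc2a1 and Pfkl. HM samples 2 and 3 are the highest HM samples in Ndrg1, Ero1l, Loxl2 and Vegfa.

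ACGTG is a core of the element that Hif factors bind. To show where it lies, promoters of 300 bases (250 before and 50 after the start of the gene, RefSeq, build GRCm38.p6) were searched for these letters on both strands. They were in 13 of the 19 promoters matched among the 26 members (68.4%), against 26.3% of the 9879 promoters of tested genes and 19.7% of all 27025. Among glycolysis genes 11 of 24 promoters (45.8%) had them, and among FGF and ERK feedback genes 6 of 27 (22.2%). Lysosome genes had them in 16 of 32 promoters, and ribosome biogenesis genes, most of which rose, in 15 of 40 (37.5%). With GCGTG counted as well, the share was 17 of 19 (89.5%) for hypoxia response genes, against 64.6% of tested genes. The counts were then 18 of 24 for glycolysis, 20 of 27 for FGF and ERK feedback, 23 of 32 for lysosome and 32 of 40 for ribosome biogenesis genes. Only 70.4% of the tested genes had a promoter in the table, which is too few for the shares to serve as a check, and a match is a description of the sequence and no evidence of binding. Below are 30 bases of the promoters of 4 members that fell, on the gene's strand and with the match in capitals (ACGTG or, for the other strand, CACGT), as examples of how the match sits in each.
Egln1 (a prolyl hydroxylase that marks Hif factors for decay, chr8:124949305-124949334, minus strand): gggccgtggtgtACGTGcagcgcgcgcgga
Fam162a (a mitochondrial protein, chr16:36071625-36071654, minus strand): ccgctcgtcgcgCACGTcccgcacgcccgc
Slc2a1 (the glucose transporter Glut1, chr4:119108697-119108726, plus strand): gtcccgccccggACGTGctccccaggcccc
Bnip3 (a receptor for the removal of mitochondria, chr7:138909596-138909625, minus strand): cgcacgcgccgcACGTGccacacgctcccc

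The differences of HM minus WT for Egln1, Fam162a, Slc2a1 and Bnip3 were -1.32, -1.20, -0.86 and -0.79. Their matches started 68, 81, 36 and 107 bases before the start of the gene. Egln1, Fam162a and Bnip3 were chosen for display after their values were seen, as members that fell and held a match. Egln1 was 62.7 and 52.6 TPM in HM samples 2 and 3, inside the WT range of 39.6 to 71.5 TPM, and 11.5 to 14.6 TPM in the other 4, and its call was lost between pair means (adjusted p = 0.118) and with unequal variances (adjusted p = 0.0631). The call for Bnip3 (adjusted p = 0.0237) was lost without HM replicate 5, HM replicate 6 or WT replicate 6, at adjusted p of 0.052 to 0.0541, between pair means, at 0.135, and without WT samples 1 and 4, at 0.0559. After centring it was -0.62 with an adjusted p of 0.0562.

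Glycolysis genes, which turn glucose into pyruvate and lactate, fell in 16 of 25 and rose in 2, 6 of the falls by at least 2-fold. The median was 0.54 below all genes, and the counts were 16 falls and 1 rise under quantile normalization. Slc2a1 was 97.1, 112 and 143 TPM in HM and 184, 211 and 231 TPM in WT (-0.86 ± 0.10, adjusted p = 2.45e-05). Slc2a3, a glucose transporter of higher affinity, was 238, 295 and 573 TPM in HM and 507, 788 and 1044 TPM in WT (-1.13 ± 0.26, adjusted p = 0.00276), and here HM samples 2 and 3 overlapped WT samples 1 and 4. Pfkl, liver phosphofructokinase, was 159, 167 and 177 TPM in HM and 255, 324 and 347 TPM in WT (-0.87 ± 0.07, adjusted p = 4.91e-06), and Hk1 fell by 1.02 ± 0.21, adjusted p = 0.00159. Of the lactate dehydrogenases, Ldhb fell (-1.06 ± 0.13, adjusted p = 4.53e-05) while Ldha, the most abundant, was 1833, 2091 and 2614 TPM in HM and 1994, 2427 and 2726 TPM in WT and did not pass (-0.11 ± 0.10, adjusted p = 0.355). The summed level of the 25 genes had a median of 18490 TPM in HM and 25450 TPM in WT.

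Of 15 mitochondrially encoded genes 9 rose and 2 fell, a median 0.46 above all genes (0.35 with quantile normalization). mt-Cytb, cytochrome b of complex III, was 3044, 3547 and 3942 TPM in HM and 1570.3, 1686 and 1771 TPM in WT (1.05 ± 0.06, adjusted p = 1.74e-07). The complex I genes mt-Nd5, mt-Nd3 and mt-Nd4 rose by 0.98, 0.83 and 0.68 and mt-Nd1 by 0.31. The ribosomal RNA gene mt-Rnr1 fell by 0.71 ± 0.14, adjusted p = 0.00095, and in poly(A) libraries its level depends on priming as well. Among 83 nuclear genes of oxidative phosphorylation 13 rose and 24 fell, but centring gave 36 rises and 11 falls, and the list median of 0.07 above all genes became -0.15 with quantile normalization. Single members moved: Ndufa5 and Uqcrq rose by 0.82 and 0.51, and Cox6b2, Atp5s, Ndufc2 and Atp5g3 fell (-1.62, -1.48, -0.87 and -0.71). Cox4i1 did not pass (0.00 ± 0.11, adjusted p = 0.989), but did without HM samples 2 and 3 (-0.19).

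Of 26 cholesterol synthesis genes 8 fell and 2 rose, a share of falls near that of all genes, and centring gave 6 falls and 5 rises. Of 26 fatty acid synthesis genes 13 fell and 4 rose (9 and 9 after centring). The master factor genes Srebf2 and Srebf1 fell (-0.66 ± 0.07, adjusted p = 1.23e-05 and -0.76 ± 0.14, adjusted p = 0.000618). Cyp51, the sterol demethylase, was 42.6, 48 and 51.8 TPM in HM and 54, 115 and 121 TPM in WT (-0.95 ± 0.20, adjusted p = 0.0015), and the glucose sensor Mlxipl fell by 1.16. Fasn, fatty acid synthase, rose from 209.7, 237 and 287 TPM in WT to 309, 375 and 462 TPM in HM (0.67 ± 0.10, adjusted p = 0.000176), as did Acsl4 (0.90). Nucleotide synthesis genes had 8 rises and 9 falls among 30, 13 and 4 after centring, with Shmt1 and Umps higher by 0.70 and 0.56 and Ctps2 and Mthfd1l lower (-0.68 and -0.61). Of 209 solute carrier genes 37 rose (17.7%) and 73 fell (34.9%), shares near those of all genes. Centring changed the counts to 68 and 57. Slc35d3 and Slc23a2, a vitamin C transporter, rose by 1.76 and 1.09, and the glutamine transporter gene Slc38a3 fell by 1.83 ± 0.23, adjusted p = 5.64e-05.

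Lysosome genes fell. They encode the acid hydrolases that break down proteins, lipids and sugars, and the membrane proteins of the compartment. Of 41 tested members 26 fell, 6 by at least 2-fold, and 1 rose. The median was 0.39 below that of all genes, and 23 falls and 3 rises remained with quantile normalization. Hexa was 0.18, 2.17 and 3.58 TPM in HM and 17.6, 19.1 and 20.1 TPM in WT, with no overlap. Neu1, the sialidase, fell by 1.36 ± 0.20, adjusted p = 0.000155 and Glb1, beta-galactosidase, (-1.0 ± 0.14, adjusted p = 0.000133). Ctsd, cathepsin D, fell by 0.30 ± 0.10, adjusted p = 0.0173 with overlapping samples, a call lost after centring (-0.12, adjusted p = 0.21) and without HM samples 2 and 3 (adjusted p = 0.0656). Lamp1, the main membrane protein, did not pass (-0.01 ± 0.05, adjusted p = 0.829) and was at 0.16 after centring. The list score was -0.62 to -0.19 in HM and -0.11 to 0.11 in WT, and -0.32 in HetKO samples 2 and 5 against 0.09 to 0.18 in the other 4.

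CACGTG is the core of the CLEAR element that TFEB and its relatives bind in lysosomal promoters. It reads alike on both strands and holds ACGTG within it, so the searches overlap. It was in 12 of 32 matched promoters of the list (37.5%), against 10.5% of tested genes and 7.24% of all. Among ribosome biogenesis genes 10 of 40 promoters (25%) held it. The windows of 3 members that fell, drawn as above, show the match in capitals and were chosen after their values were seen, apart from Glb1 and Ctsd, which the naming rule gave.
Glb1 (beta-galactosidase, chr9:114401018-114401047, plus strand): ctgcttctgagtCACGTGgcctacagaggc
Mcoln1 (the calcium channel of the lysosome, chr8:3500462-3500491, plus strand): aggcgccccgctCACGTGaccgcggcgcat
Ctsd (cathepsin D, chr7:142387908-142387937, minus strand): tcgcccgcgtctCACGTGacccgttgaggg

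The differences of the 3 genes were -1.0, -0.94 and -0.30, and the matches started 48, 45 and 98 bases before the start.

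Stress pathways did not move as 1 group. Nrf2 and glutathione genes rose in 12 of 33 and fell in 5, a median 0.26 above all genes. Slc7a11, the cystine importer, was 7.49, 9.3 and 12 TPM in HM and 2.33, 3.6 and 5.09 TPM in WT (1.21 ± 0.16, adjusted p = 8.75e-05). Txnrd1 and Gclm, of thioredoxin and glutathione supply, rose by 0.76 ± 0.11, adjusted p = 0.000142 and 0.70 ± 0.09, adjusted p = 5.95e-05. Gstt1 and Mgst1, glutathione transferases, fell (-1.88 and -0.90). Atf4 and amino acid stress genes had 10 rises and 1 fall among 46. The counts were 24 and 1 after centring, 6 and 2 with quantile normalization and 6 and 5 without HM samples 2 and 3. Without WT samples 1 and 4, an alternative chosen after seeing the data, there were 8 rises and 10 falls. Atf4 itself rose by 0.38 ± 0.13, adjusted p = 0.0212 with overlapping samples, a call lost without HM samples 2 and 3 (adjusted p = 0.0988), without WT samples 1 and 4 (0.0893) and with quantile normalization (0.195). Of the others Atf5 rose by 0.82 ± 0.08, adjusted p = 1.56e-05 and Aars by 0.46. Asns and Ddit3 did not pass (-0.32 ± 0.16, adjusted p = 0.125 and -0.68 ± 0.47, adjusted p = 0.245), but both did without WT samples 1 and 4 (-0.51 and -1.2).

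Genes of p53 and its targets fell in 16 of 33 and rose in 4, a median 0.25 below all genes. Trp53 itself was low, 0.10, 0.64 and 1.02 TPM in HM and 1.56, 2.04 and 2.6 TPM in WT (-0.97 ± 0.17, adjusted p = 0.000499), and Mdm2 and Cdkn1a did not pass (-0.05 and 0.05). Pmaip1, which encodes the death-promoting BH3 protein Noxa, was 0, 0.060 and 0.13 TPM in HM, 2.39, 5.01 and 5.75 TPM in WT and 3.41, 6.49 and 12.2 TPM in HetKO (-2.28 ± 0.18, adjusted p = 2.67e-06). Trp53inp1 was 3.73, 4.58 and 12.2 TPM in HM and 21.9, 24 and 30.3 TPM in WT (-1.91 ± 0.26, adjusted p = 8.37e-05), and Ephx1 and the receptor gene Eda2r fell (-1.32 and -1.19). Tigar and Aen rose by 0.57 and 0.70. In the Bcl2 family, 9 of 19 fell and 3 rose, which centring changed to 5 and 6. Beside Pmaip1, the BH3 gene Bbc3, Puma, fell by 0.90 ± 0.22, adjusted p = 0.00426. Of the protective members Mcl1 was 97.8, 175 and 194 TPM in HM and 78.1, 85.4 and 89.3 TPM in WT (0.85 ± 0.15, adjusted p = 0.000448) and Bcl2l1 rose by 0.29, while Bcl2 and Bcl2l11 did not pass (-0.09 and -0.21).

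Markers of the stem cell state had both rises and falls. In bulk RNA fewer cells that express a marker and less of its RNA per cell cannot be told apart. Of 19 core pluripotency genes 8 rose and 3 fell, a median 0.37 above all genes that fell to 0.14 with quantile normalization. Sox2 was 136, 156 and 177 TPM in HM and 95.4, 97.3 and 108 TPM in WT (0.66 ± 0.07, adjusted p = 1.95e-05). L1td1, an RNA-binding protein of stem cells, was 236, 311 and 383 TPM in HM, 128, 139 and 149.5 TPM in WT and 199, 236 and 418 TPM in HetKO (1.12 ± 0.11, adjusted p = 1.23e-05), and Utf1 rose by 0.81 ± 0.15, adjusted p = 0.000704. Sall4 fell (-1.83 ± 0.54, adjusted p = 0.0122): it was 1.24 and 0.63 TPM in HM samples 1 and 4 and 11.5 to 13.5 TPM in the other 4, against 20.2, 24.2 and 27.9 TPM in WT and 34.3, 36.6 and 69.5 TPM in HetKO. The call for Sall4 was lost between pair means (adjusted p = 0.0996) and with unequal variances (adjusted p = 0.0583).

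Of 12 naive pluripotency genes 3 rose and 3 fell. Nr0b1, Dax1, was 32, 72.5 and 103 TPM in HM and 15.1, 19.4 and 28 TPM in WT (1.62 ± 0.30, adjusted p = 0.000671), and Klf2 rose by 0.68 and Fbxo15 fell by 1.17. Esrrb, which defines the naive state, was under the filter, with medians of 0.86 TPM in HM and 0.72 TPM in WT, and Klf4 did not pass (0.22 ± 0.16, adjusted p = 0.252). Primed epiblast genes had 6 rises and no fall among 18. Besides Fgf5, Lef1 was 20, 28.8 and 50.5 TPM in HM and 6.45, 7.96 and 9.43 TPM in WT (1.89 ± 0.20, adjusted p = 1.79e-05), and Foxd3 and Sox3 rose by 0.95 and 0.54. Otx2 did not pass (-0.01 ± 0.06, adjusted p = 0.877).

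The primitive streak and mesoderm list had 12 of 32 members above the filter, of which 7 rose and 1 fell. T, Brachyury, was 10.9, 22.5 and 41.9 TPM in HM, 3.45, 5.36 and 8.6 TPM in WT and 0.94, 8.65 and 110.5 TPM in HetKO (1.80 ± 0.31, adjusted p = 0.000418). Eomes was 12.7, 18.9 and 22 TPM in HM and 7.14, 9.52 and 11.2 TPM in WT (0.94 ± 0.14, adjusted p = 0.000145). Twist1 and Nkx1-2 rose by 1.43 ± 0.28, adjusted p = 0.0011 and 1.41 ± 0.24, adjusted p = 0.000417, Mixl1 by 0.40 ± 0.15, adjusted p = 0.0425 with overlapping samples and an adjusted p of up to 0.0902 when 1 sample was left out, and Tbx6 fell by 1.01 ± 0.15, adjusted p = 0.000164. These levels remained far below those of Pou5f1.

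Of 15 endoderm genes 1 rose and 5 fell, a share of falls near that of all genes. The falls included Apoe (-0.93), Lamc1 (-0.40) and Gata6 (-0.83 ± 0.22, adjusted p = 0.00625), with Gata4 and Sox17 under the filter. The riser was Fst, follistatin, 29.9, 40.6 and 67.8 TPM in HM and 8.41, 16.6 and 21 TPM in WT (1.48 ± 0.24, adjusted p = 0.000288), which also binds activin. Of 20 neuroectoderm and neuronal genes 2 rose, En1 and En2 (1.41), and 8 fell, among them Map2 (-1.08) and Ncam1 (-0.80). Pax6 and Sox1 were under the filter and Nes did not pass (0.09 ± 0.19, adjusted p = 0.693). Trophectoderm and simple epithelial genes had 1 rise, Peg10 (0.72 ± 0.18, adjusted p = 0.00558), and no fall among 12, and Krt8 and Krt18 did not pass (-0.09 and -0.59), although Krt18 passed without HM replicate 1 or 4 (-0.79 and -0.78). Of 7 Hox genes above the filter 1 rose and none fell, and without chromosome 2 from 60 to 80 Mb 3 were tested and none rose. Fibroblast and muscle genes fell in 8 of 19 and rose in 1, with Fbln1, Cnn1 and Anxa2 lower (-1.12, -1.11 and -1.11), Vim lower (-0.59) and Tpm1 higher by 0.61. The call for Vim was lost without HM samples 2 and 3 (adjusted p = 0.0559), without WT samples 1 and 4 (0.0766) and after centring (0.094). Acta2 was 27.2 and 24.2 TPM in WT samples 1 and 4 and under 1.1 TPM in the other 4 and did not pass, but rose by 1.56 without WT samples 1 and 4 (adjusted p = 0.0242). Haematopoietic genes had 1 rise, Lyz2 (0.88), and 2 falls, Coro1a (-0.54) and Hba-a1 (-0.72), among 6, with Ptprc, CD45, near 0.

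Germline genes that DNA methylation keeps silent mostly stayed under the filter: 11 of 50 were tested, 1 rose and 3 fell. Ddx4, Vasa, was 0.12, 0.215 and 0.27 TPM in HM and 0.95, 1.93 and 2.74 TPM in WT (-1.25 ± 0.15, adjusted p = 4.43e-05), Rec8, a cohesin of meiosis, fell by 2.35 ± 0.21, adjusted p = 5.49e-06, and Dazl was under the filter. Of the 2-cell stage genes 3 of 31 were tested and Eif1a rose (0.65 ± 0.08, adjusted p = 4.69e-05), while Arg2 and Pramef12 did not pass (0.26 and -0.24). Zscan4c was at most near 0. Of 9 X-linked Rhox, Xlr and Mage genes 1 rose and 2 fell. These families share reads between copies. Outside the Dlk1-Dio3 cluster 13 of 47 imprinted genes rose and 20 fell, which centring changed to 16 and 11. Inpp5f was 77.4, 83.5 and 89.6 TPM in HM and 27.8, 29 and 32.2 TPM in WT (1.46 ± 0.06, adjusted p = 2.48e-09). Peg3 and its neighbour Usp29 rose by 0.83 ± 0.15, adjusted p = 0.000715 and 1.28 ± 0.17, adjusted p = 7.31e-05, H13 by 0.93, and Gatm, Trappc9 and Nnat fell (-2.0, -1.01 and -1.65). H19 was 2.37, 5.93 and 18.3 TPM in HM and 11.6, 13.4 and 25 TPM in WT (-1.05 ± 0.41, adjusted p = 0.0466), with overlap, and Igf2 did not pass (-0.33 ± 0.36, adjusted p = 0.455). The calls for Nnat and H19 did not hold throughout, since leaving out 1 sample raised the adjusted p to as much as 0.0775 for Nnat and 0.103 for H19, and no HM sample could be left out of Nnat without losing the call. Nnat was 12.8 and 13.5 TPM in WT samples 1 and 4, 0.22 to 1.18 TPM in the other 4 and listed at 0 in every HM sample, so the size of its difference rests on that pair. Both calls were also lost after centring, at adjusted p of 0.068 and 0.0939.

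Of 23 DNA methylation enzymes and imprint guards 4 rose and 7 fell, 9 and 5 after centring. Dnmt1 did not pass (-0.02 ± 0.05, adjusted p = 0.758), the hydroxymethyl-binding Uhrf2 and the reader Mbd1 fell (-0.89 and -0.94), and Setdb1, the H3K9 methyltransferase of retroelements, rose by 0.58 ± 0.11, adjusted p = 0.000767. Dnmt3l did not pass (1.26 ± 0.65, adjusted p = 0.122), but did without HM samples 2 and 3 (1.91) or WT samples 1 and 4 (2.08): it was 68.4 TPM in HM sample 4 and 5.25 to 19.9 TPM in the other 5, and 20.9 and 20.4 TPM in WT samples 1 and 4. Polycomb genes had 13 rises and 11 falls among 38, and 5 rises and 9 falls between pair means. The methyltransferase genes Ezh2 and Ezh1 fell (-0.33 ± 0.06, adjusted p = 0.000614 and -1.27 ± 0.13, adjusted p = 1.21e-05), while Eed, Phf19 and Rbbp7 of the same complex rose by 0.54, 1.13 and 0.71. In the Trithorax and SWI/SNF list 12 of 37 rose and 6 fell. Arid1b was 36.5, 39 and 40.9 TPM in HM and 11.2, 14.9 and 15.9 TPM in WT (1.39 ± 0.08, adjusted p = 1.54e-07), Dpy30 rose by 0.66, Ash2l fell by 0.52, and the ATPase gene Smarca4 did not pass (0.03 ± 0.06, adjusted p = 0.663).

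Replication-dependent histone genes fell in 13 of 36 and rose in 2, a median 0.44 below all genes that became 0.22 below without HM samples 2 and 3. The share of falls was near that of all genes, but 8 members (22.2%) fell by at least 2-fold, against 4.86% of all genes. The list score was -0.68 and -0.83 in HM samples 2 and 3 and -0.25, -0.41 and -0.15 in HM samples 4, 5 and 6. HM sample 1, at -0.06, was inside the WT range of -0.12 to 0.17. Hist1h3c, Hist1h2ag and Hist1h4b fell (-1.57, -1.49 and -1.29) and Hist1h4i rose by 1.29. Their messenger RNAs lack poly(A) tails and their near-identical copies share reads, so poly(A) libraries hold little of them. Among 347 zinc finger genes named Zfp 92 rose and 89 fell, while centring gave 142 and 46 and leaving out HM samples 2 and 3 gave 80 and 98. Zfp382 was listed at 0, 0 and 0 TPM in HM against 5.91, 9.07 and 11.8 TPM in WT (-3.26 ± 0.15, adjusted p = 1.36e-08), and Zfp131 and Zfp719 rose by 1.02 and 1.07.

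The genes that make and use miRNAs had 7 rises and 6 falls among 20. Dgcr8, which recognises primary miRNA hairpins with Drosha, was 35, 39.2 and 55.1 TPM in HM, 20.1, 23.2 and 24.4 TPM in WT and 22.4, 27.7 and 45.2 TPM in HetKO (0.85 ± 0.11, adjusted p = 4.63e-05). Tnrc6a, a GW182 protein that carries out silencing, rose by 0.63 ± 0.13, adjusted p = 0.0017, and the RNA editor Adar and the helicase Ddx5 by 0.59 and 0.43. Prkra, the PACT protein that binds Dicer, was 17.4, 19.5 and 26.5 TPM in HM and 30.8, 39.6 and 41.8 TPM in WT (-0.83 ± 0.11, adjusted p = 9.44e-05). The uridylating Tut4 and the helicase Ddx17 fell (-0.43 and -0.38), and Ago2 did not pass (-0.06 ± 0.05, adjusted p = 0.326).

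Of the other signalling pathways, Notch genes fell in 13 of 26 and none rose. Notch1 was 2.62, 3.58 and 4.66 TPM in HM and 6.5, 8.1 and 9.87 TPM in WT (-1.02 ± 0.12, adjusted p = 4.28e-05), Notch3 fell by 1.05 ± 0.13, adjusted p = 5.66e-05, and Numbl and the glycosyltransferase gene Mfng had differences of -1.08 and -1.22. The median was 0.10 below all genes, and 8 falls and no rise remained with quantile normalization. The target gene Hes1 did not pass (0.11 ± 0.13, adjusted p = 0.501).

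Wnt genes had 4 rises and 13 falls among 39 (8 and 6 after centring), a share of falls near that of all genes. The 4 rises became 1 without HM replicate 6 or WT replicate 2. Lef1 rose, as given above, while Tcf7 fell by 0.49, the receptor gene Fzd5 (-0.60), the secretion factor Wls (-1.09) and the receptor ligase Rnf43 (-1.21). The feedback target Axin2 was 5.07, 7.86 and 13.6 TPM in HM and 6.94, 7.95 and 8.91 TPM in WT and did not pass (-0.02 ± 0.17, adjusted p = 0.925), nor did Ctnnb1 (0.04 ± 0.04, adjusted p = 0.396). Nodal genes had 6 rises and 7 falls among 24, 7 and 2 after centring. Lefty1, a Nodal inhibitor, was 37.8, 81.7 and 106 TPM in HM and 87.9, 277 and 416 TPM in WT, a difference of -1.63 ± 0.43, adjusted p = 0.00694 with overlap, Smad7 rose by 1.22 ± 0.18, adjusted p = 0.000188, and Nodal did not pass (0.09 ± 0.18, adjusted p = 0.688). BMP genes had 5 of each among 21, with the targets Id1 (1.66 ± 0.25, adjusted p = 0.000159) and Id3 (0.74) higher, Bmp7 and Smad6 lower (-1.07 and -0.82) and Bmp4 not past the test (-0.44 ± 0.19, adjusted p = 0.0728). Bmp4 passed without HM replicate 1 (-0.61) or 3 (-0.52).

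Hedgehog genes fell in 4 of 14 with no rise, a share of falls (28.6%) under that of all genes (32.0%). The falls included the receptor Ptch1 (-0.71 ± 0.08, adjusted p = 2.1e-05) and the co-receptors Boc and Cdon (-0.71 and -0.70), while the target Gli1 did not pass (-0.06 ± 0.13, adjusted p = 0.711). Retinoic acid genes had 3 rises and 8 falls among 20. Crabp2, a retinoic acid carrier, was 4.59, 5.7 and 6.87 TPM in HM and 12.6, 14.3 and 23.4 TPM in WT (-1.33 ± 0.14, adjusted p = 2.03e-05), Rdh11 fell by 0.70 and Aldh1a3 rose by 0.76, while Cyp26a1 did not pass (0.72 ± 0.37, adjusted p = 0.124) but did without HM replicate 2 or 3 (0.99 and 0.93) and without both (1.32, adjusted p = 0.000234). Hippo genes had 8 rises and 6 falls among 30, 8 and 9 without HM samples 2 and 3. The kinases split, with Stk4 higher (0.42) and Stk3 lower (-0.90). Yap1 rose by 0.20 ± 0.07, adjusted p = 0.0246, which was lost without HM replicate 5 or WT replicate 1 (adjusted p = 0.0563 and 0.0501) and without WT samples 1 and 4 (0.0575), and Amotl1 fell by 1.02.

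Interferon and double-stranded RNA sensing genes had 5 rises (17.2%) and 11 falls (37.9%) among 29, shares near those of all genes. With Eif2ak2, Stat2 and Herc6 were lower, with differences of -1.03 and -0.93. Ifih1 was under the filter. MHC class I genes had 3 rises and 5 falls among 16, shares near those of all genes, and 5 and 3 after centring. H2-K1 was 139, 205 and 300.1 TPM in HM and 107, 113 and 126 TPM in WT (0.83 ± 0.18, adjusted p = 0.00232), H2-T22 and H2-Q4 fell (-1.92 and -2.10), Tapbp (-0.97), and B2m did not pass (0.05 ± 0.13, adjusted p = 0.789). Class I genes are near copies and share reads.

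Matrix glycoprotein and protease genes fell in 20 of 45 and rose in 4, or in 2 without any one of HM replicate 1 and WT replicates 2, 3 and 5. Thbs2, thrombospondin 2, was 0.27, 0.55 and 0.94 TPM in HM and 3.97, 4.42 and 5.34 TPM in WT (-1.83 ± 0.12, adjusted p = 7.25e-07), and Fbln1 18.6, 20.8 and 26.9 TPM in HM and 33.1, 55.4 and 60.8 TPM in WT (-1.12 ± 0.16, adjusted p = 0.000138). The laminin chain Lamb2 fell by 1.01, the glypican Gpc4 rose by 1.18, and Fn1, the most abundant of those named, did not pass (0.00 ± 0.22, adjusted p = 0.988). Integrin genes fell in 5 of 11 and none rose. Itga6, the laminin receptor chain of stem cells, was 39.4, 49.7 and 66.7 TPM in HM and 121, 142 and 152 TPM in WT (-1.47 ± 0.11, adjusted p = 1.39e-06), and Itga3 fell by 1.06 ± 0.12, adjusted p = 2.26e-05. Itgb1 did not pass (-0.16 ± 0.15, adjusted p = 0.389), but did without HM samples 2 and 3 (-0.35). Collagen genes fell in 6 of 21, under the share of all genes, and rose in 1, with Col9a2 lower (-1.68) and Col6a4 higher by 0.68 and with Col1a1 and Col4a1 not past the test (-0.37 and -0.12).

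Epithelial junction genes had 7 rises and 10 falls among 36, 9 and 5 after centring, and 6 falls without HM replicate 2 or 3. The tight junction genes Ocln and Marveld2 rose by 0.81 and 0.69 and Tjp3 and the protease gene Prss8 fell (-1.30 and -1.56). Cdh1 and Epcam did not pass (-0.04 and -0.11). Mesenchymal transition genes had 4 rises and 6 falls among 28, 7 and 3 after centring. Tgfb1 rose by 1.04 ± 0.14, adjusted p = 9.02e-05, Zeb1 and Mmp2 fell (-0.59 and -0.74) and Cdh2 did not pass (-0.25), but did without HM replicate 1 (-0.32) and without WT samples 1 and 4 (-0.37). Clustered protocadherin genes, of which 7 of 56 were tested, fell in 4 and none rose, with Pcdhgc3 and Pcdhgc4 lower (-1.05 and -1.15). Their shared 3′ exons make their counts uncertain. Non-clustered protocadherin and Fat genes rose in 5 of 12 and fell in 2, with Pcdh18 higher by 1.23 ± 0.16, adjusted p = 5.74e-05 and Fat1 by 0.33.

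Eph receptor and ephrin genes had 2 rises and 7 falls among 19, a share of falls (36.8%) near that of all genes. Quantile normalization gave 5 rises and 4 falls. Epha2 was 20.7, 42.7 and 52.2 TPM in HM and 10.3, 14.4 and 15.4 TPM in WT (1.42 ± 0.21, adjusted p = 0.000165), Epha7 and Ephb2 fell (-1.11 and -1.06) and Efnb2 did not pass (0.04). In the semaphorin, plexin and Slit-Robo list 14 of 34 fell and 3 rose. Plxnb2 was 32.1, 37.3 and 47.9 TPM in HM and 76.3, 80.4 and 91.9 TPM in WT (-1.09 ± 0.10, adjusted p = 7.59e-06), the netrin receptor gene Unc5a fell by 1.48 and Sema7a rose by 1.39. Of 66 voltage-gated ion channel genes 26 fell and 7 rose, with Cacng6 and Cacnb3 lower (-1.39 and -1.19) and Kcns1 higher by 1.54.

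Of 12198 protein-coding genes 20.6% rose and 34.3% fell, and of 232 lincRNAs 10.3% rose and 32.8% fell, 27 of the falls by at least 2-fold. Of 805 processed pseudogenes 12.9% rose and 8.45% fell. Among the autosomes and the X chromosome the share that rose was 15 to 22.5%. The share that fell was 26.3 to 37.3%, apart from chromosome 3, where it was 21.2%. By transcript length, the shortest of 5 equal bins had 15.6% higher and 21.5% lower, and the other bins 18.5 to 21.8% higher and 31.8 to 36.0% lower.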

How the data were processed

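The samples were 6 each of the P19 lines WT, HetKO and HM, grouped by their labels. Poly(A) RNA was sequenced as stranded paired-end libraries on an Illumina NovaSeq. The authors merged overlapping reads with BBMerge and quantified genes with RSEM, and the submitters' processing notes also name cutadapt, STAR and mm10. They deposited 1 table of TPM values with 55450 genes, all of whose IDs matched GENCODE M21. Deposited TPM keeps no read depth: columns summed to 999999.2 to 1000000.5, so the depth behind each value is unknown, and no counting interval is given.

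Genes that averaged 1 TPM or more in the 12 HM and WT samples were compared as log2(TPM + 1), with a pseudocount of 1, in limma 3.58.1 (R 4.3.3), with Benjamini-Hochberg adjustment over the 14043 genes and an adjusted p under 0.05 as the threshold. HetKO did not enter the fit. Summaries and plots used Python 3.11.15, numpy 2.4.6, pandas 2.3.3 and matplotlib 3.10.9. Tested on simulated data for this comparison with 200 of 14043 genes changed by 2-fold, the fit recovered 177 and made 8 false calls. The simulated noise was independent between samples, so it cannot show how the alike pairs affect the p-values.

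The genes and the 66 lists were chosen with earlier results of these data known. Genes were named by rule: Dicer1, the 15 largest increases and 15 largest decreases with no overlap of samples and a mean of at least 5 TPM, fixed anchor genes of each list, up to 4 of the largest rises and falls in it, and all members of lists with fewer than 5 tested. A few others were named after their values were seen, and some genes are not reported here. Promoters came from RefSeq (GRCm38.p6). They matched 70.4% of tested genes, under the 80% needed, so a check of promoter CpG content was void and is not reported. The alternatives were another filter or none, a pseudocount of 0.1, median centring, quantile normalization, the replicate number as a block, means of alike pairs, leaving out samples singly or in pairs, a 2-fold limit, a gene-wise test with unequal variances and, for lists, leaving out chromosome 2 from 60 to 80 Mb.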

Additional observations from a re-analysis of the deposited data

Results flagged for a closer look

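In groups of 6 samples, a value is listed here when the gap from the highest or lowest sample to its nearest neighbour exceeded Dixon's critical share of the range of the group. Chance marks about 1 in 20 groups, and 24 of 664 groups of named genes and 3 of 132 groups of list scores were marked. The values are given without explanation, and their causes were not tested.

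In HM, sample 1 stood apart most often. It was lowest in Birc5 at 265.78 TPM, with the others at 305.04 to 316.96, and in Eif6 at 172.29 TPM, with the others at 203.35 to 213.81. It was highest in Ldhb at 87.35 TPM (others 51.73 to 57.52), in Map2 at 5.65 TPM (others 2.83 to 3.61), in Pramef12 at 2.33 TPM (others 0.61 to 0.91) and in Rdh11 at 49.88 TPM (others 41.53 to 44.17). HM sample 4 was highest in Dnmt3l at 68.43 TPM, with the others at 5.25 to 19.86, and in Pou5f1 at 2145.2 TPM, with the others at 1999.1 to 2042.1. HM sample 5 was highest in Lama1 at 2.26 TPM (others 1.29 to 1.6), Dlk1 at 0.55 TPM (others 0 to 0.12) and Tsnax at 0.42 TPM (others 0.07 to 0.16), and lowest in Uty at 14.76 TPM (others 18.67 to 19.72). Meg3 was 0.01 TPM in HM sample 3 and listed at 0 in the others.

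In WT, sample 4 was highest in Ago2 at 60.19 TPM (others 52.73 to 54.46), Smarca4 at 106.31 TPM (others 93.64 to 97.27), Mthfd1l at 46.23 TPM (others 42.55 to 43.89) and Hist1h4i at 2.71 TPM (others 0.86 to 1.55). Sample 1 was highest in Rian at 430.59 TPM (others 370.52 to 391.2) and Mad2l1 at 73.73 TPM (others 70.24 to 71.37), and sample 3 in Sox2 at 107.77 TPM (others 95.4 to 98.28) and P3h1 at 26.08 TPM (others 19.49 to 21.56). Sample 5 was highest in Eif2ak2 at 10.82 TPM (others 8.32 to 9.18) and sample 2 in Eif3j2 at 54.83 TPM (others 49.04 to 51.11), while sample 6 was lowest in Dgcr8 at 20.14 TPM (others 22.86 to 24.38).

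Among list scores, p53 genes were lowest in HM sample 4 at -0.46, with the others at -0.25 to -0.15. Notch genes were lowest in HM sample 6 at -0.34, with the others at -0.21 to -0.14. Matrix glycoprotein and protease genes were lowest in WT sample 1 at -0.03, with the others at -0.01 to 0.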

How the results depend on the processing

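The 7220 genes that differed between HM and WT became 3414 between means of alike pairs, with 1182 higher and 2232 lower, and 856 with a limit of at least 2-fold. The WT means were of samples 1 with 4, 2 with 5 and 3 with 6. WT samples 2, 3, 5 and 6 were all alike (robust SD 0.0495 to 0.0944), so the WT means do not all stand for separate groups. Leaving out each sample in turn gave 6573 to 7350 genes, and the other alternatives gave 5877 to 7669. Without WT samples 1 and 4, an alternative chosen after seeing the data, there were 7431. Dicer1 stayed lower and past the threshold under each alternative run, between -0.40 and -0.34 with 1 sample left out and -0.19 after median centring. Centring turned the differences of Aurka to 0.01, Dnmt1 to 0.16, Lamp1 to 0.16 and Pou5f1 to 0.14. Sign changes of list medians relative to all genes are given only where the main value exceeded the SD of the list's HM scores. Smaller medians also turned, such as that of cytosolic ribosomal proteins, from 0.01 to -0.07 with quantile normalization. Under that scaling the medians past this limit changed sign for DNA methylation enzymes and imprint guards (-0.01), nuclear oxidative phosphorylation (-0.15) and nucleotide synthesis (-0.03). With no filter they did so for zinc finger genes named Zfp (-0.01), G1 to S regulators (-0.04), nuclear oxidative phosphorylation (-0.01) and clustered protocadherins (0.03), and at 5 TPM or more for solute carriers (0.01), BMP genes (-0.06) and Eph genes (0.13). Hox genes had no value at that filter. Leaving out chromosome 2 from 60 to 80 Mb took the Hox list from 7 to 3 tested genes. Its median relative to all genes went from 0.54 to 0.01. This was the 1 of 66 list medians that moved by at least the SD of its HM scores. Which named genes lie in that interval is not reported here. Of 331 named genes besides Dicer1, 34 lost their call between pair means. They include Sall4, Lefty1, Gata6, Cdkn1b, Bbc3, Hif1a and Mad2l1, at adjusted p of 0.0573 to 0.0996. Of the 331, 8 lost and 6 gained a call without HM samples 2 and 3, and 6 lost and 6 gained it without WT samples 1 and 4. Vim, Atf4, Aurka and H19 lost it in both of the latter. Of 3972 values with 1 sample left out, 35 lost a call and 7 gained one. The cause of these changes was not tested. The count was 6889 once the replicate number entered the fit as a block. The numbers do not pair the samples: the correlation of same-numbered deviations was -0.0738 to 0.109, and 1 of 6 correlated best with its own number. Among the named genes the block lost Ctsd and Mixl1 and gained Dnmt3l and Krt18. Depth cannot be judged from TPM.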
